A study of Rattus norvegicus with 46 samples.

Results

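Skeletal muscle fibres contract when an action potential runs along their membrane. Scn4a, Clcn1, Cacna2d1, Atp1b2, Aqp4 and Lynx1 are 6 genes of that membrane. They encode a sodium channel, a chloride channel, a calcium channel subunit, a pump subunit, a water channel and a relative of snake neurotoxins. They were chosen by name, with earlier results of these data known. The platform annotation gave each gene 1 probe set, so no choice between probe sets was needed, and all 6 were among the 9289 genes kept for testing. RNA came from the proximal gastrocnemius of 23 female Sprague-Dawley rats, with 1 Affymetrix array for each hind leg, 46 in all. Every rat was anaesthetised with isoflurane and ventilated. All were paralysed with α-cobrotoxin, a toxin from snake venom that occupies the acetylcholine receptors where nerve meets muscle. In each rat a lever flexed and extended the left ankle passively at 13.3 cycles per minute (the loaded leg), while the other leg was left still (the unloaded leg). The 6 groups were loaded and unloaded legs of 13 rats studied for 6 h to 4 d, of 4 rats studied for 5 to 8 d, and of 6 rats studied for 9 to 14 d. Both legs of every rat were paralysed, and no unparalysed rat was measured. A window pools rats of different durations. A later window is therefore set against the first days of paralysis and not against healthy muscle.

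An action potential begins when voltage-gated sodium channels open, and it spreads into the transverse tubules, where calcium channel complexes sense the voltage. A large chloride conductance damps it and keeps resting muscle from firing on its own. The sodium-potassium pump restores the ion gradients after activity, and a water channel in the membrane of fast fibres lets water follow. Chloride conductance and channel make-up are known to depend on the nerve and on fibre activity, and loss of membrane excitability is known in muscle of paralysed intensive care patients and in rat models of it. Lynx1 belongs to the three-finger proteins, whose fold snake α-neurotoxins such as α-cobrotoxin share. It is known from brain, where it binds nicotinic acetylcholine receptors.

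In the later windows 4 of the 6 genes were lower than at 6 h to 4 d in both legs. They were the water channel Aqp4, the three-finger protein Lynx1, the pump subunit Atp1b2 and the chloride channel Clcn1. The calcium channel subunit Cacna2d1 fell by less and not in every comparison, and the sodium channel Scn4a did not pass the test in any comparison of windows, although under other settings it did in loaded legs. With passive loading, Cacna2d1 was 0.13 higher on the log2 scale in loaded than in unloaded legs over all rats. That call (adjusted p = 0.0347, limma with rat as a block) ended under several other settings and without any 1 of 6 rats. No other member differed between the legs past the threshold, with wide intervals in the later windows for Atp1b2, Aqp4 and Lynx1.

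The sequences around the starts of Aqp4, Atp1b2 and Clcn1, which fell, and of Scn4a, which did not pass, are shown so that members of both kinds can be read side by side. They are RefSeq's on the rat build GRCr8, with 250 bases before and 50 bases after the annotated start, written 5′ to 3′ on the strand of the gene. That start is the one of the promoter entry, which can differ from the end of the gene region given below. The Clcn1 window begins at 72138928, inside the gene region, which runs from 72138739. Capitals mark each match to CANNTG, the E-box bound by the MyoD family of muscle factors, and to the MEF2 site; both patterns read the same on either strand, and no match of one overlapped the other.
Aqp4, chr18:6798793-6799092, minus strand: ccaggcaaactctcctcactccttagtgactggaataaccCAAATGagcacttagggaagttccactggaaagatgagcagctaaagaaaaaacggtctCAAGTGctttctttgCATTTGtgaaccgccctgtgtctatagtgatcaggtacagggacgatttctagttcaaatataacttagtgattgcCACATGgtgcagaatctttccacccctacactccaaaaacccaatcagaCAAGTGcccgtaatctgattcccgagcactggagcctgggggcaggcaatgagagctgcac
Atp1b2, chr10:54823659-54823958, minus strand: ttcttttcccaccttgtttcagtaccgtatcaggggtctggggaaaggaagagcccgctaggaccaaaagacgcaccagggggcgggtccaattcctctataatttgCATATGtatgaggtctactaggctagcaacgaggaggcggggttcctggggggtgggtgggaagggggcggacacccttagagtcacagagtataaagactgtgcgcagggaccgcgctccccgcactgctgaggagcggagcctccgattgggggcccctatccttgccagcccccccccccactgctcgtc
Clcn1, chr4:72138928-72139227, plus strand: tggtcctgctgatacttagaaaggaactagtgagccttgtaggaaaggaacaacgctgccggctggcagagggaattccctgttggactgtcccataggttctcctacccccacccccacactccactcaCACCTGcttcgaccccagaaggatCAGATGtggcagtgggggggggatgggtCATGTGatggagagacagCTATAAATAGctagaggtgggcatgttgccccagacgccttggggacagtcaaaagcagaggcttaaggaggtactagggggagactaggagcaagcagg
Scn4a, chr10:91796275-91796574, minus strand: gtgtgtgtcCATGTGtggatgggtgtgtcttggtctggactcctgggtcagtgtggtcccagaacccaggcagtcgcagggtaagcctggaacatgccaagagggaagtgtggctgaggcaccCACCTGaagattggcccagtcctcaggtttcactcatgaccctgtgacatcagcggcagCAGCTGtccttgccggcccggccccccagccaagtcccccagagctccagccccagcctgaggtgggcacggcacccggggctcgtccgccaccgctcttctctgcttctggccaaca
The Aqp4 window held 5 E-box matches, that of Clcn1 held 3, that of Scn4a held 3 and that of Atp1b2 held 1. At least 1 E-box match is in 72.1% of the 33469 promoter windows of the same length. The capital run of 10 bases in the Clcn1 window is the MEF2 match, a pattern found in 3.29% of those windows. It lies 50 to 41 bases before the start of the promoter entry, and so inside the gene region. Aqp4 has another annotated start with 1 E-box match, and the 3 annotated starts of Cacna2d1 hold neither pattern. These matches describe letters in the windows, and binding was not measured.

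Levels are RMA log2 values, so a difference of 1 is a doubling, and the medians of single arrays lay between 6.07 and 6.20. Differences were tested with limma over all 9289 genes at a Benjamini-Hochberg adjusted p of 0.05. The rats came under 5 date codes in the labels, whose meaning the labels do not give. Code 3 is the one code that holds all 3 windows, with 4 rats at 6 h to 4 d, 2 at 5 to 8 d and 4 at 9 to 14 d. Codes 1, 2 and 4 hold rats of 6 h to 4 d alone, and code 5 holds rats of the later windows alone. A fit with date code as a block therefore compares later windows with 6 h to 4 d through the 4 early rats of code 3. It is not a check apart from the values within code 3. Rats 35 and 37, both of 6 h to 4 d and code 3, stood apart from the other rats of their window. Their 4 arrays lay at 4.47 to 12.9 on the first principal component, against -34.8 to -14.7 for the other arrays of that window and 18.1 to 36.9 for those of the later windows. Values within code 3 and without these rats stand beside the results they change. In whole muscle, fewer cells of a type and less RNA per cell cannot be told apart.

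**Figure D1:**
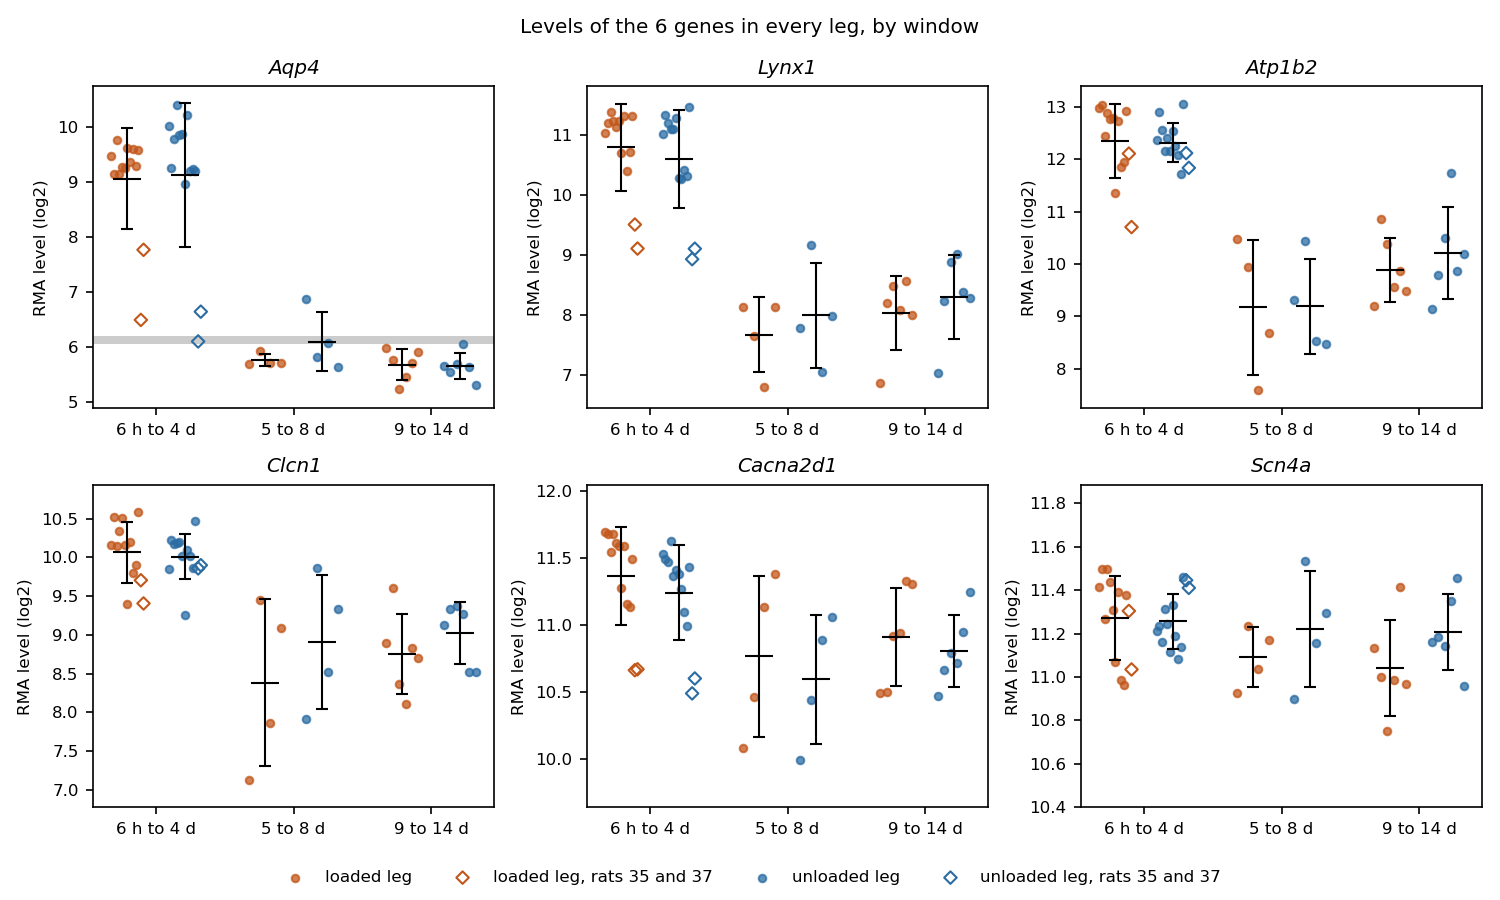
RMA log2 level of each gene in every leg, by window, with loaded legs (orange) left of unloaded legs (blue); each point is 1 array, bars are group mean and SD (13, 4 and 6 rats), open diamonds are rats 35 and 37, and the grey band is the range of the arrays' medians. Aqp4 lies below its own array's median in every leg of the later windows but the unloaded leg of rat 41, which is above the band at 6.87, Scn4a stays between 10.75 and 11.53 throughout, and each panel has its own vertical scale.

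Scn4a, on chromosome 10 from 91745459 to 91796452 (GRCr8), encodes the pore-forming sodium channel that starts the action potential of adult skeletal muscle. Its level in loaded legs was 11.27 ± 0.19 at 6 h to 4 d, 11.09 ± 0.14 at 5 to 8 d and 11.04 ± 0.22 at 9 to 14 d (SD, n = 13, 4 and 6). Unloaded legs were at 11.26 ± 0.13, 11.22 ± 0.27 and 11.21 ± 0.17 in the same windows. These 6 means lie within 1 SD of their neighbours in order, and the groups overlap throughout: the lowest leg of all was at 10.75 and the highest at 11.53. At 9 to 14 d minus 6 h to 4 d the log2 difference was -0.23 in loaded legs (95% interval -0.43 to -0.03, adjusted p = 0.0595, limma). It was -0.05 in unloaded legs (95% interval -0.23 to 0.13, adjusted p = 0.672). The difference in loaded legs passed the threshold with cyclic loess (-0.35), with array weights (-0.26), without rats 35 and 37 (-0.25), and without any 1 of 5 rats (numbers 23, 29, 31, 37 and 57). The difference at 5 to 8 d minus 6 h to 4 d was -0.18 in loaded legs (adjusted p = 0.221) and -0.04 in unloaded legs (adjusted p = 0.815), and in loaded legs it passed with cyclic loess (-0.33, adjusted p = 0.0381) and with array weights (-0.23, adjusted p = 0.0484).

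Clcn1, on chromosome 4 from 72138739 to 72168113, encodes the chloride channel that provides most of the resting conductance of the fibre; its loss causes myotonia, in which fibres fire repeatedly. At 6 h to 4 d it ran from 9.40 to 10.58 with a median of 10.16 in loaded legs, and from 9.26 to 10.47 with a median of 10.02 in unloaded legs. At 5 to 8 d it was at 7.12, 9.45, 7.87 and 9.09 in loaded legs and at 7.91, 9.86, 8.52 and 9.34 in unloaded legs. At 9 to 14 d it ran from 8.11 to 9.60 with a median of 8.76 in loaded legs, and from 8.52 to 9.37 with a median of 9.20 in unloaded legs. Every leg of the later windows was below the median of its leg in the first window, yet the ranges overlapped. The 4 rats of 5 to 8 d were far apart, with rat 41 lowest and rat 43 highest in both legs.

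The fall of Clcn1 passed the test in 4 of 4 comparisons with 6 h to 4 d. In loaded legs the log2 difference was -1.68 at 5 to 8 d (SE 0.31, adjusted p = 2.71e-04, limma), a 3.21-fold lower level, and -1.31 at 9 to 14 d (SE 0.27, adjusted p = 4.23e-04). Unloaded legs differed by -1.10 at 5 to 8 d (SE 0.24, adjusted p = 0.00125) and -0.99 at 9 to 14 d (SE 0.21, adjusted p = 6.21e-04), a 1.98-fold lower level. The differences within date code 3 were, in the same order, -1.61, -1.16, -1.14 and -0.75, and none of these passed (adjusted p = 0.320, 0.192, 0.239 and 0.188). With date code as a block the unloaded difference at 5 to 8 d was -0.91 and did not pass (adjusted p = 0.105), and the other 3 passed.

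Cacna2d1, on chromosome 4 from 19902324 to 20330287, encodes the α2δ subunit that accompanies the voltage sensor of the transverse tubule and helps bring it to the membrane. In loaded legs its level was 11.37 ± 0.36 at 6 h to 4 d, 10.76 ± 0.60 at 5 to 8 d and 10.91 ± 0.37 at 9 to 14 d (SD). Unloaded legs were at 11.24 ± 0.35, 10.59 ± 0.48 and 10.81 ± 0.27. No mean was more than 1 SD from the next in order. The lowest legs of the first window, from 10.49 to 10.67, were the 4 legs of rats 35 and 37.

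Cacna2d1 fell at 5 to 8 d by 0.60 on the log2 scale in loaded legs (SE 0.22, adjusted p = 0.0342, limma) and by 0.65 in unloaded legs (SE 0.20, adjusted p = 0.0127). The fall at 9 to 14 d was 0.44 in unloaded legs (SE 0.17, adjusted p = 0.0384), while the difference in loaded legs was -0.45 (SE 0.19, adjusted p = 0.0571) and did not pass. Without rats 35 and 37 Cacna2d1 passed in 4 of 4 comparisons, with differences from -0.77 to -0.56, and it also passed in 4 of 4 with cyclic loess and with array weights. With date code as a block it passed in 0 of 4, with differences from -0.61 to -0.26. Without rats 17 and 27, whose legs correlated least in an earlier analysis, the calls in loaded legs at 5 to 8 d (adjusted p = 0.0675) and in unloaded legs at 9 to 14 d (adjusted p = 0.0732) ended. Leaving out any 1 of 12 rats ended the call in unloaded legs at 9 to 14 d. Leaving out rat 41 ended it in both legs at 5 to 8 d, and leaving out rat 43 ended it in loaded legs there.

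Atp1b2, on chromosome 10 from 54817473 to 54823708, encodes the β2 subunit of the sodium-potassium pump, which carries the catalytic subunit to the membrane and in rat muscle is found mainly in fast fibres. At 6 h to 4 d its level ran from 10.71 to 13.04 with a median of 12.73 in loaded legs, and from 11.73 to 13.05 with a median of 12.26 in unloaded legs. At 5 to 8 d it was at 10.48, 9.94, 7.59 and 8.68 in loaded legs and at 9.31, 10.43, 8.54 and 8.48 in unloaded legs. At 9 to 14 d it ran from 9.20 to 10.85 with a median of 9.71 in loaded legs, and from 9.13 to 11.73 with a median of 10.03 in unloaded legs. The unloaded leg of rat 51 at 11.73 touched the lower end of the first window, and its loaded leg was at 9.56; no other leg of 9 to 14 d was above 10.85. Loaded legs overlapped through rat 37, at 10.71 in the first window, against rat 47 at 10.85.

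In loaded legs Atp1b2 was 9.06-fold lower at 5 to 8 d than at 6 h to 4 d (log2 difference -3.18, SE 0.43, adjusted p = 1.56e-05, limma), and 5.51-fold lower at 9 to 14 d (-2.46, SE 0.37, adjusted p = 1.60e-05). In unloaded legs it was 8.76-fold lower at 5 to 8 d (-3.13, SE 0.34, adjusted p = 1.10e-06) and 4.33-fold lower at 9 to 14 d (-2.12, SE 0.29, adjusted p = 4.85e-06). Set against 5 to 8 d, the 9 to 14 d level was higher by 0.72 in loaded legs (adjusted p = 0.523) and by 1.01 in unloaded legs (95% interval 0.22 to 1.80, adjusted p = 0.191), and neither passed. The difference in unloaded legs passed with array weights (1.45, adjusted p = 0.0032) and without rat 43 (1.43, adjusted p = 0.0284). The differences from 6 h to 4 d within date code 3 were -1.72 and -1.93 in loaded legs and -2.31 and -1.89 in unloaded legs, at 5 to 8 d and 9 to 14 d in turn. Of these 4 that of loaded legs at 9 to 14 d passed (adjusted p = 0.0489). Date code as a block kept all 4 calls, with differences from -2.63 to -1.68.

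Aqp4, on chromosome 18 from 6782389 to 6799034, encodes the water channel of the fast fibre membrane, held there by the dystrophin complex. At 6 h to 4 d loaded legs ran from 6.50 to 9.77 with a median of 9.30, and unloaded legs from 6.10 to 10.40 with a median of 9.26. At 5 to 8 d it was at 5.70, 5.93, 5.71 and 5.71 in loaded legs and at 6.87, 5.82, 6.08 and 5.64 in unloaded legs. At 9 to 14 d it ran from 5.23 to 5.99 with a median of 5.74 in loaded legs, and from 5.32 to 6.06 with a median of 5.65 in unloaded legs. Every leg of the later windows except the unloaded leg of rat 41 was below its own array's median, so the low level is not well measured there and no fold is given. The later windows did not overlap the first one in loaded legs, nor at 9 to 14 d in unloaded legs. The unloaded leg of rat 41, at 6.87 at 5 to 8 d, was above those of rats 35 and 37.

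The log2 difference of Aqp4 in loaded legs was -3.30 at 5 to 8 d (SE 0.39, adjusted p = 3.50e-06, limma) and -3.39 at 9 to 14 d (SE 0.33, adjusted p = 8.27e-08). For unloaded legs it was -3.04 at 5 to 8 d (SE 0.55, adjusted p = 2.33e-04) and -3.48 at 9 to 14 d (SE 0.48, adjusted p = 4.25e-06). These are differences between the deposited values and, with the later level below the array median, are not read as the size of the fall. Rats 35 and 37 were already low in the first window, at 6.50 and 7.77 in loaded legs and 6.10 and 6.65 in unloaded legs, where the other rats' legs were between 8.96 and 10.40. Without rats 35 and 37 the 4 differences were between -3.99 and -3.54. Date code 3 has these rats as 2 of its 4 early ones. There loaded legs differed by -2.48 at 5 to 8 d (adjusted p = 0.242) and -2.68 at 9 to 14 d (adjusted p = 0.0342), and unloaded legs by -1.45 (adjusted p = 0.450) and -2.05 (adjusted p = 0.0844). With date code as a block the unloaded difference at 5 to 8 d was -1.52 and did not pass (adjusted p = 0.121), and that at 9 to 14 d was -2.02 and passed (adjusted p = 0.0081).

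Lynx1 lies on chromosome 7 from 108521783 to 108527012. At 6 h to 4 d its level ran from 9.11 to 11.39 with a median of 11.13 in loaded legs, and from 8.93 to 11.46 with a median of 11.02 in unloaded legs. At 5 to 8 d it was at 8.13, 7.64, 6.80 and 8.13 in loaded legs and at 7.78, 9.17, 7.06 and 7.98 in unloaded legs. At 9 to 14 d it ran from 6.86 to 8.57 with a median of 8.15 in loaded legs, and from 7.03 to 9.01 with a median of 8.33 in unloaded legs. Loaded legs of the later windows did not overlap those of the first. Unloaded legs overlapped only through rats 35 and 37, whose 8.93 and 9.10 were the lowest of the first window.

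In loaded legs Lynx1 was 8.68-fold lower at 5 to 8 d than at 6 h to 4 d (log2 difference -3.12, SE 0.37, adjusted p = 3.50e-06, limma) and 6.75-fold lower at 9 to 14 d (-2.76, SE 0.32, adjusted p = 5.45e-07). In unloaded legs it was 6.09-fold lower at 5 to 8 d (-2.61, SE 0.43, adjusted p = 8.43e-05) and 4.92-fold lower at 9 to 14 d (-2.30, SE 0.37, adjusted p = 3.00e-05). Loaded legs of date code 3 differed by -2.28 (adjusted p = 0.239) and -2.25 (adjusted p = 0.037), and unloaded legs by -1.48 (adjusted p = 0.399) and -1.67 (adjusted p = 0.120). With date code as a block the unloaded difference at 5 to 8 d was -1.77 (adjusted p = 0.0545), at 9 to 14 d -1.52 (adjusted p = 0.0293).

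**Figure D2:**
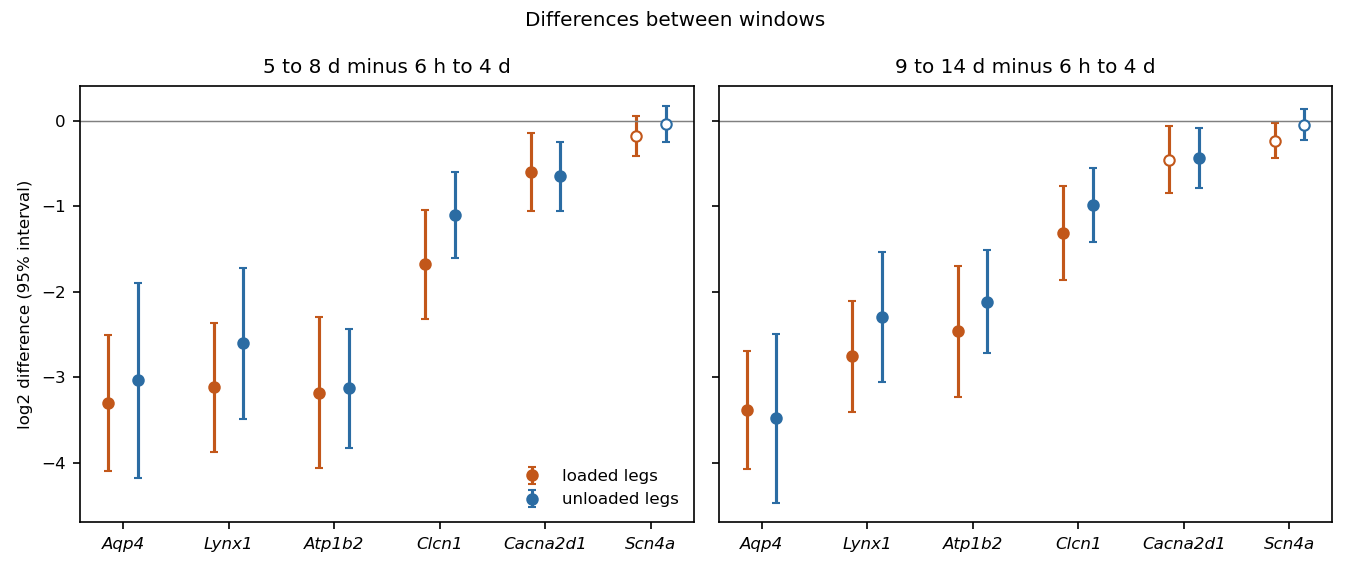
Log2 difference of each gene from the 6 h to 4 d window at 5 to 8 d (left) and 9 to 14 d (right), in loaded legs (orange) and unloaded legs (blue); points are limma estimates, bars are 95% intervals, and open points did not pass an adjusted p of 0.05. Aqp4, Lynx1 and Atp1b2 lie between -3.48 and -2.12, Clcn1 between -1.68 and -0.99, and Scn4a between -0.23 and -0.04.

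Counted together, 5 of the 6 members were lower at 5 to 8 d than at 6 h to 4 d in loaded legs, where 12% of all genes tested were lower. In unloaded legs 5 were lower, where 12.3% of all genes were. At 9 to 14 d, 4 members were lower in loaded legs, where 15.2% of all genes were lower and 29% higher. In unloaded legs 5 were lower, where 16.9% of all genes were lower and 28.7% higher. The members' median log2 difference at 9 to 14 d was -1.89 in loaded legs and -1.55 in unloaded legs, against 0.08 and 0.07 over all genes. The members were chosen with earlier results of these data known. Their counts and medians therefore describe them and do not test the set. The counts within date code 3 were 0 and 3 in loaded legs and 0 and 0 in unloaded legs for the later windows in turn. Of all genes there, 0% were lower at 5 to 8 d in loaded legs and 0.0646% in unloaded legs, and at 9 to 14 d 1.78% were lower in loaded legs and 2.64% in unloaded legs. With date code as a block 4 members were lower in loaded legs at 5 to 8 d and 4 at 9 to 14 d, where 3.15% and 7.14% of all genes were. In unloaded legs 1 and 4 were, where 2.76% and 8.15% of all genes were. The 4 early rats of date code 3 include rats 35 and 37, and the other 2 are rats 31 and 33. Over their 4 legs Aqp4 was at 9.20 to 9.58, against 8.96 to 10.40 in the other codes, and Lynx1 at 10.32 to 11.46, against 10.27 to 11.39. Atp1b2 was at 11.73 to 13.05, against 11.36 to 13.04, and Clcn1 at 9.87 to 10.58, against 9.26 to 10.52. Cacna2d1 was at 10.99 to 11.49, against 11.10 to 11.69, and Scn4a at 10.96 to 11.46, against 10.99 to 11.50. These ranges leave out rats 35 and 37 of the same code. Their legs were at 6.10 to 7.77 for Aqp4, 8.93 to 9.51 for Lynx1 and 10.49 to 10.67 for Cacna2d1. They were at 10.71 to 12.12 for Atp1b2, 9.40 to 9.90 for Clcn1 and 11.03 to 11.45 for Scn4a. Whether date code moved these levels was not tested. Between 9 to 14 d and 5 to 8 d no member passed in either leg, where 0.226% of all genes did in each.

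Loading was compared within rats. Cacna2d1 was higher in the loaded leg of 21 of 23 rats, by 0.13 on the log2 scale over all rats (SE 0.03, 95% interval 0.06 to 0.20, adjusted p = 0.0347, limma with rat as a block). This is a 1.09-fold higher level, in a comparison where 1.08% of all genes were higher and 1.82% lower. It was higher in 12 of 13 rats at 6 h to 4 d, in 4 of 4 at 5 to 8 d and in 5 of 6 at 9 to 14 d; the exceptions were rat 23 at -0.11 and rat 47 at -0.16. The call ended without rats 35 and 37 (0.13, adjusted p = 0.0616), without rats 17 and 27 (0.12, adjusted p = 0.0544) and with no filter on dim probe sets (adjusted p = 0.0525). It also ended within date code 3 (0.08, adjusted p = 0.530), and without any 1 of 6 rats (numbers 11, 31, 49, 53, 55 and 57), where the highest adjusted p was 0.0598. It rests on the pairing of legs, since without the replicate block the adjusted p was 0.926.

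Clcn1 was lower in the loaded leg of 4 of 4 rats at 5 to 8 d, at 7.12, 9.45, 7.87 and 9.09 in loaded legs against 7.91, 9.86, 8.52 and 9.34 in unloaded legs. The difference of -0.52 (95% interval -0.90 to -0.15) did not pass after adjustment (p = 0.0084, adjusted p = 0.409, limma), and none of the 9289 genes did (0%). The legs of rats 49 and 51 at 9 to 14 d differed by -1.0 and -1.16 and those of the other 4 rats by -0.22 to 0.31, and the mean difference of -0.27 did not pass (adjusted p = 0.444). Over all rats the Clcn1 difference was -0.13 (adjusted p = 0.359). The remaining differences between legs were within 0.10 of 0 over all rats, with intervals from -0.38 to 0.25 for Atp1b2, -0.34 to 0.15 for Aqp4, -0.20 to 0.17 for Lynx1 and -0.14 to 0.03 for Scn4a. No member passed in a single window, where 0%, 0% and 0.269% of all genes did at 6 h to 4 d, 5 to 8 d and 9 to 14 d. An unadjusted p was under 0.05 for 1075, 644 and 1205 genes. Intervals in the later windows were wide. At 5 to 8 d they were -0.78 to 0.74 for Atp1b2, -0.93 to 0.24 for Aqp4 and -0.77 to 0.12 for Lynx1. At 9 to 14 d they were -0.94 to 0.30, -0.45 to 0.50 and -0.63 to 0.10. Leg differences of these sizes are not excluded. With array weights Cacna2d1 passed at 6 h to 4 d (0.14, adjusted p = 0.0445). The differences of the loading effect between windows passed for no gene (0% in each of 3 such comparisons; unadjusted p was under 0.05 for 557, 717 and 248 genes), and the smallest adjusted p of a member was 0.635.

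**Figure D3:**
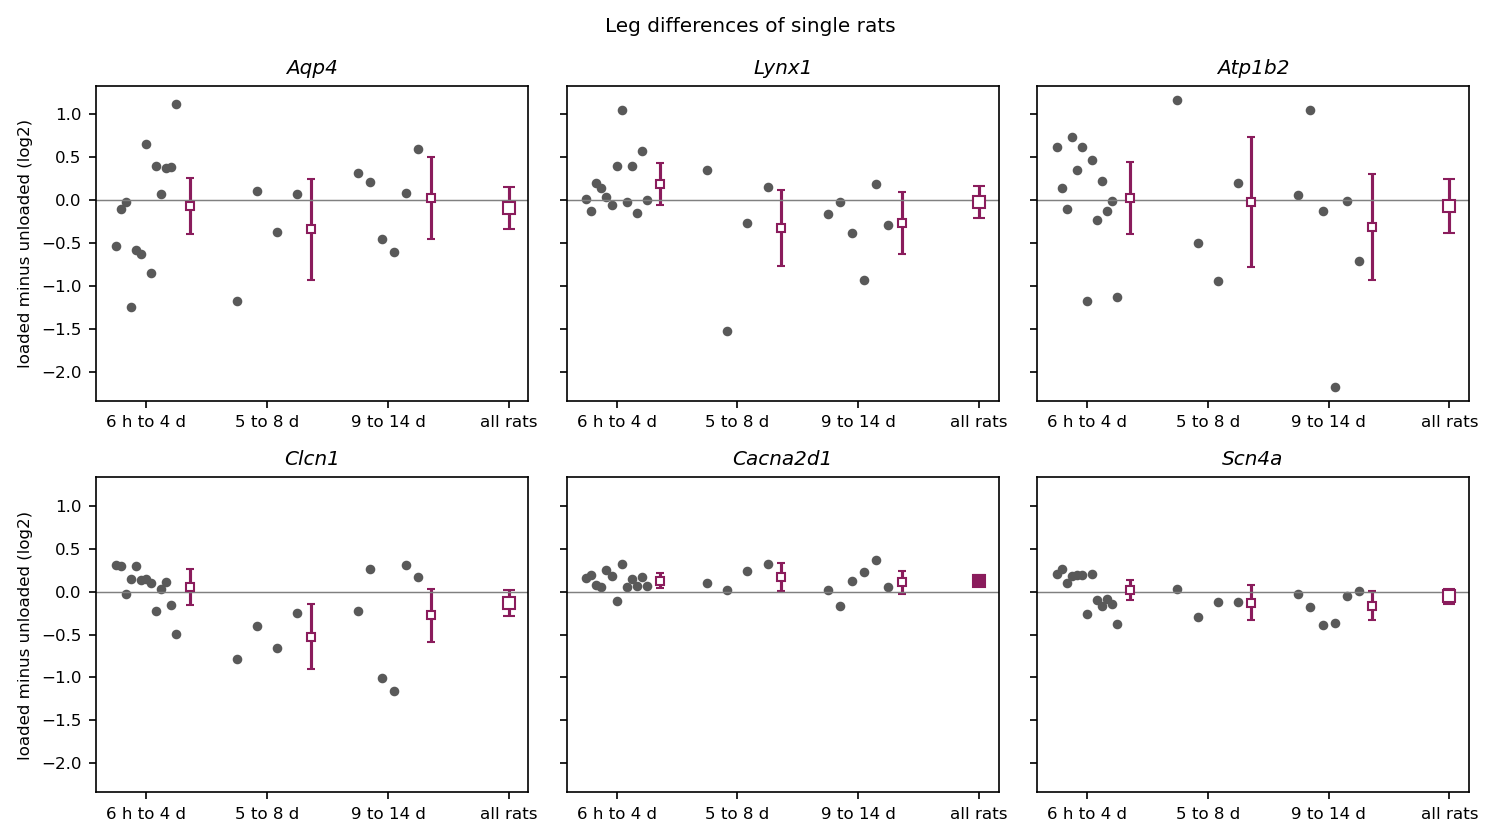
Loaded minus unloaded leg (log2) of each gene; grey points are single rats by window, squares with bars are limma estimates with 95% intervals for each window and for all rats, filled where the adjusted p is under 0.05. Only the all-rats square of Cacna2d1 is filled; its points lie between -0.16 and 0.37, while those of Atp1b2 run from -2.17 to 1.16.

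The members belong to 6 families, and the dystrophin complex and membrane anchors were added as a seventh list. In none of these did every kept gene pass the test. The families were taken as fixed lists of genes, chosen with earlier results of these data known. They are counted in unloaded legs at 9 to 14 d minus 6 h to 4 d, where 16.9% of all genes were lower and 28.7% higher. Chloride genes lay below both of these shares, and with so few genes in a list the other counts are given as counts alone. Of 5 sodium channel genes kept, 2 fell and 1 rose. The β4 subunit Scn4b fell by 1.70 on the log2 scale (adjusted p = 5.08e-04, limma), and the embryonic and neuronal channel Scn3a fell by 0.36. The β3 subunit Scn3b rose by 0.96 (adjusted p = 0.0262), with Scn3a and Scn3b each below their array's median in 9 of 13 unloaded legs of the first window. Scn4b is known to slow the closing of the channel's gate and to carry a resurgent current in other excitable cells. Of 11 chloride channel and transporter genes, Clcn1 fell and 2 rose: the potassium-chloride cotransporter Slc12a7 by 0.71 (adjusted p = 1.70e-05) and the endosomal exchanger Clcn5, dim in the first window, by 0.59.

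Of 10 calcium channel genes kept, 5 fell and 2 rose. The γ7 subunit Cacng7 fell by 2.39 (adjusted p = 4.37e-07) and the low-voltage-activated channel Cacna1h by 0.49, while the muscle β subunit Cacnb1, which carries the voltage sensor to the triad, rose by 1.15 and the β3 subunit Cacnb3 by 0.63. Cacna2d1 and Cacnb1, subunits of the same complex, moved in opposite directions here, though the fall of Cacna2d1 did not pass with date code as a block. Cacng7, Cacna1h and Cacnb1 also passed within date code 3, with differences of -1.95, -0.62 and 1.02. Of 9 genes kept in the pump list, 4 fell and 1 rose. Beside Atp1b2, phospholemman (Fxyd1), a regulator of the pump, fell by 0.83. The muscle-specific Atp1b4, dim in most legs, fell by 0.58. It is listed by its name, and a part in the pump was not measured. Atp1b3, a β subunit of the pump like Atp1b2, rose by 0.41.

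Of 5 aquaporins kept, 4 fell: Aqp4, the glycerol channel Aqp7 by 1.51 (adjusted p = 0.011), the vessel water channel Aqp1 by 0.60 and the dim Aqp3 by 0.21. Of 11 genes of the dystrophin complex and the membrane anchors, which hold Aqp4 and Scn4a in place, 3 fell and 0 rose. These were δ-sarcoglycan (Sgcd) by 0.66, ankyrin 1 (Ank1) by 0.52 and α-sarcoglycan (Sgca) by 0.44. Of 6 Ly6 and three-finger genes kept, 2 fell, Lynx1 and Ly6h (by 0.34). The lists' median differences ran from -0.60 for aquaporins to 0.19 for chloride genes, against 0.07 over all genes. Of the genes named from these families, Scn3a, Atp1b3 and Aqp3 did not pass with cyclic loess, and Clcn5 and Aqp3 did not pass with array weights. With date code as a block, where 8.15% of all genes were lower and 15.3% higher, 10 of the named genes that are not members no longer passed: Scn3b, Clcn5, Cacnb3, Atp1b4, Aqp1, Aqp3, Aqp7, Ank1, Sgcd and Ly6h. The member Cacna2d1 did not pass then either. Aqp4 was then the 1 aquaporin of 5 that passed, with Aqp7 at -0.72 (adjusted p = 0.374) and Aqp1 at -0.25 (adjusted p = 0.456). Under that setting the pump subunit Atp1b1 (1.87, adjusted p = 0.026) and the spectrin Sptb (-0.40, adjusted p = 0.0222), both named after their values were seen, passed. The counts within date code 3, where 2.64% of all genes were lower and 7.09% higher, were smaller, with 0 sodium, chloride, pump, aquaporin or Ly6 genes passing, 1 anchor gene lower (Sgca), and 2 calcium genes lower and 1 higher. Between loaded and unloaded legs over all rats, where 1.08% of all genes were higher and 1.82% lower, 4 of the listed genes passed. Cacna2d1 and Sgca (0.16) were higher in loaded legs. Slc12a7 (-0.22) and utrophin (Utrn, -0.21, named after its value was seen) were lower in loaded legs.

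**Figure D4:**
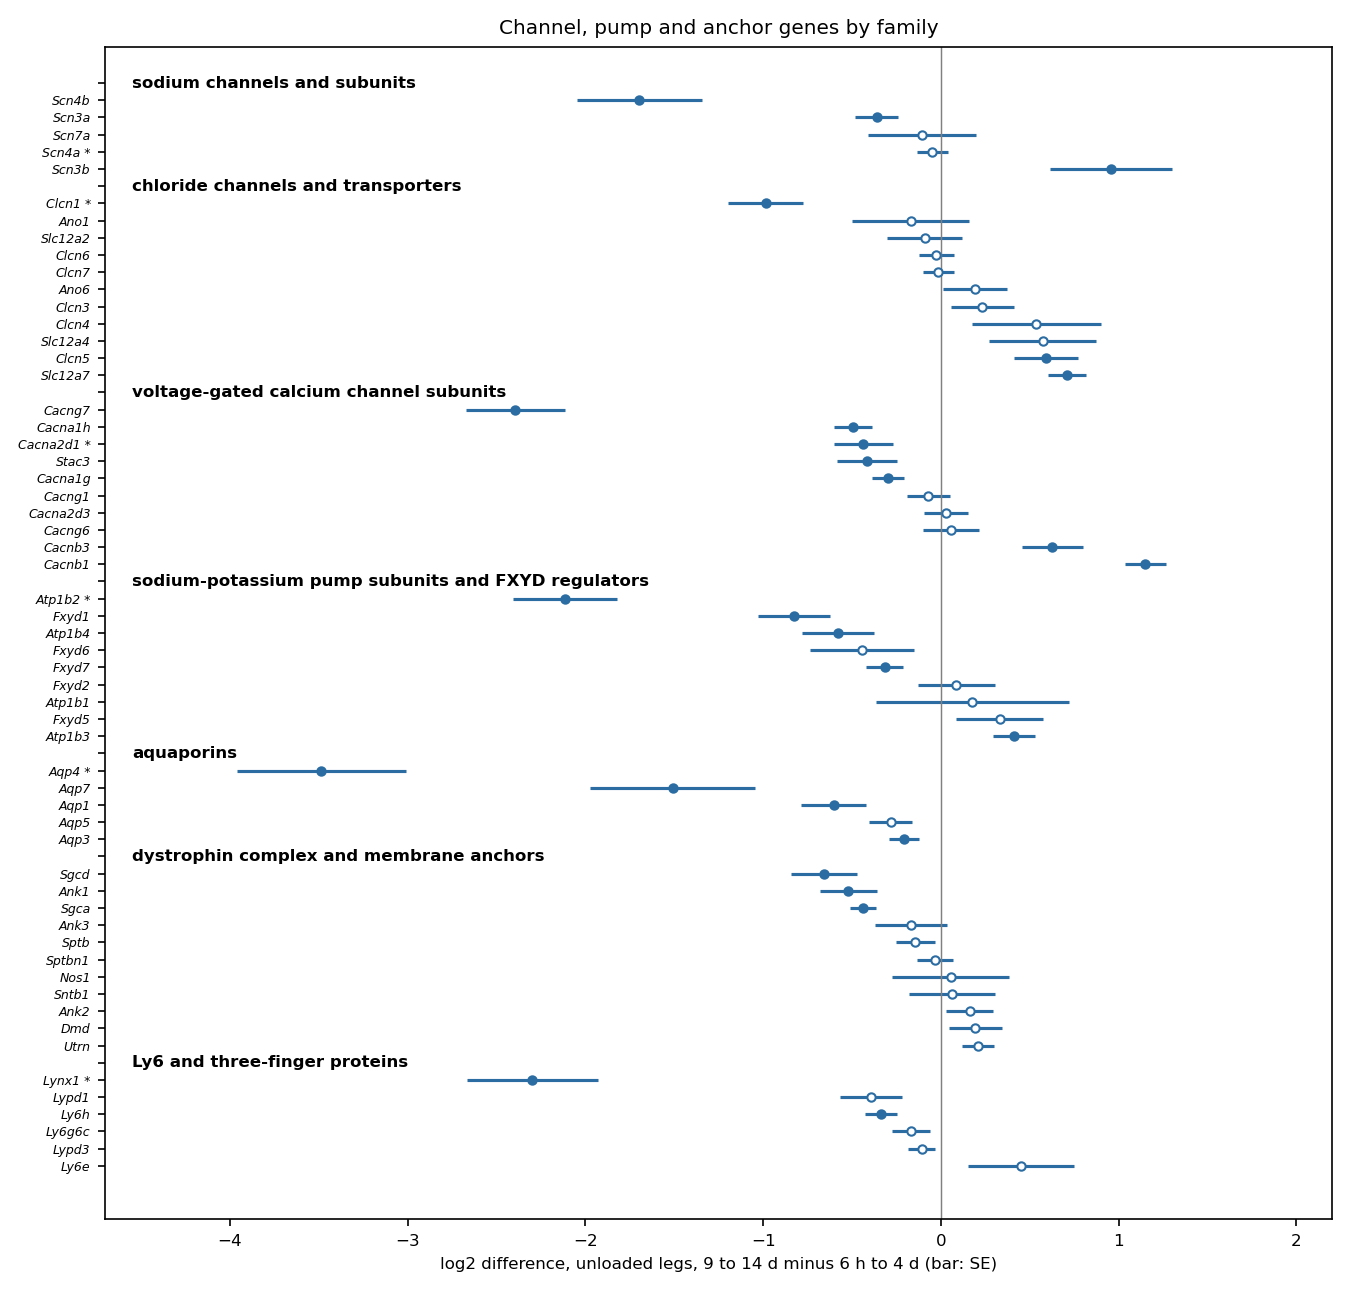
Log2 difference in unloaded legs, 9 to 14 d minus 6 h to 4 d, for each kept gene of the 6 families and the anchor list; points are limma estimates, bars are SE, filled points passed an adjusted p of 0.05, and an asterisk marks the 6 genes chosen by name. Cacng7 is at -2.39, Lynx1 at -2.30 and Cacnb1 at 1.15, and the position of Aqp4 rests on later levels below the array median.

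Markers of fibre types and of other cells were counted in the same comparison, against the same 16.9% of all genes lower and 28.7% higher. Of 9 fast fibre markers kept, 4 were lower and 0 higher. Their mean level was 13.22, 12.78 and 12.68 in loaded legs over the 3 windows, and 13.22, 12.61 and 12.72 in unloaded legs. Of 10 slow fibre markers 4 were lower, and their mean level differed widely between legs of the same group, from 6.81 to 12.12 in loaded and from 6.49 to 12.10 in unloaded legs at 6 h to 4 d. Of 9 macrophage markers 6 were higher, with group means of 8.15 in loaded legs and 8.40 in unloaded legs at 9 to 14 d, against 7.53 and 7.56 at 6 h to 4 d. They were at 7.25 and 7.27 at 5 to 8 d. Fibroblast markers averaged 8.32 in loaded legs and 8.01 in unloaded legs at 5 to 8 d, against 9.38 and 9.36 at 6 h to 4 d. There 5 of 9 were lower in loaded legs and 8 of 9 in unloaded legs, where 12% and 12.3% of all genes were, and at 9 to 14 d 3 of 9 were lower in unloaded legs. Markers of the muscle fibre itself were at 13.41 to 13.72 in every group, 5 of 8 lower and 1 higher. Of the others kept, 1 of 6 Schwann cell markers was higher, and 2 of 5 endothelial and 1 of 7 adipocyte markers were lower, the Schwann cell and adipocyte shares being below those of all genes. Of 7 smooth muscle and pericyte markers 3 were lower and 1 higher. In loaded legs at 9 to 14 d, 15.2% of all genes were lower and 29% higher than at 6 h to 4 d. There 6 of 9 fast fibre markers and 0 of 10 slow fibre markers were lower, and 4 of 9 macrophage markers were higher. The part of all these markers in the members' falls was not tested.

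The genes whose levels were most like each member over the 46 arrays differed from member to member. These are descriptions over arrays that share rats and windows. Each Pearson r is therefore followed by the r left after the 6 group means are taken away. All 46 arrays stayed in both values, and date code was not taken away. Rats 35 and 37 lay far from their group means for Aqp4. They were at 6.50 and 7.77 in loaded legs, against a mean of 9.07. In unloaded legs they were at 6.10 and 6.65, against 9.14. How far any second r, here or below, rests on these rats was not tested. Lynx1 was most like the glycolytic enzyme Pkm (0.97, then 0.89), the fatty acid ligase Acsl6 (0.97, then 0.89) and Mlf1 (0.96, then 0.88). Atp1b2 was also most like Pkm (0.96, then 0.81), followed by the sarcomere protein Mypn (0.94, then 0.83) and myostatin, Mstn (0.93, then 0.71). Aqp4 was most like the lactate dehydrogenase Ldhd (0.96, then 0.81), the respiratory chain subunit Ndufs7 (0.96, then 0.81) and Dhrs11 (0.95, then 0.86).

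Cacna2d1 followed the glycolytic enzymes Pgk1 (0.94, then 0.91) and Pgam2 (0.93, then 0.91) and Pcyox1 (0.93, then 0.90). Clcn1 was most like the chromatin protein Satb1 (0.91, then 0.80), the growth hormone receptor Ghr (0.88, then 0.66) and Asb10 (0.88, then 0.70). Scn4a was most like the kinase Camk2g (0.78, then 0.84), Tlcd4 (0.77, then 0.75) and Rragd (0.77, then 0.72). Among the members themselves, Lynx1 ran with Atp1b2 (0.93, then 0.68) and Aqp4 (0.91, then 0.62), whereas Aqp4 and Atp1b2 ran together over groups (0.81) but little within them (0.19). Cacna2d1 and Atp1b2 had 0.54, then 0.06, and Scn4a and Aqp4 had 0.24, then -0.17.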

How the data were processed

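Levels are RMA log2 expression values that the authors deposited, 1 per probe set and array (26208 probe sets); per the submitters' processing notes the tool was RMA, which corrects background, quantile-normalises and summarises probes, in a version not given in the sources used here. Quantile normalisation removes shifts shared by most genes. Probe sets were named by the platform annotation (15088 with 1 symbol, 323 with several, 10797 not listed). A probe set was kept when its value exceeded the median of the array on 4 arrays or more, and the brightest stood for its gene, leaving 9289 genes. Gene positions and promoters are RefSeq's (GRCr8); 5 of 6 members matched a promoter entry.

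Differences were tested with limma 3.58.1 (R 4.3.3) and Benjamini-Hochberg adjustment at 0.05. Leg comparisons used 46 arrays with rat as a block, and the all-rats value is the mean over 23 rats; window comparisons used 23 arrays of 1 leg. Legs were paired by consecutive label numbers of the same window and date code, so pairs are inferred, and a rat is named by its unloaded leg's number. Both legs' deviations from group means correlated above 0.1 in 21 of 23 rats (median 0.60). The exceptions were rat 17 (0.08) and rat 27 (-0.35). Legs of different rats were not compared in this way, so these values do not test the pairs. The model was tested on simulated data. Alternatives were cyclic loess, array weights, other filters, no block, left-out rats and date codes. Arrays give no counts, and their number limits the precision. The 6 genes, the gene lists and tests were chosen with earlier results of these data known. For each member at most 3 like genes, and for each family at most 4 passing genes with the largest difference in unloaded legs at 9 to 14 d minus 6 h to 4 d, are named by rule; 0 sample columns were left unused.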

Additional observations from a re-analysis of the deposited data

Results flagged for a closer look

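In groups of 4 or 6 legs, 2 of 24 sets of member levels had 1 leg far from the others by Dixon's test, about the number chance gives, since chance marks about 1 in 20 such groups. Aqp4 in the loaded leg of rat 43 at 5 to 8 d was at 5.93, against 5.71 for the next highest leg of its group; all 4 legs there were below their array's median, so this gap lies among levels that are not well measured. Lynx1 in the loaded leg of rat 45 at 9 to 14 d was at 6.86, the lowest of its group, against 8.00 for the next; the unloaded leg of the same rat was also the lowest of its group, at 7.03.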

How the results depend on the processing

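Member counts and values were recomputed with other scaling, filters, weights, spreads, date codes and rats. Of 514 member values under settings other than leaving out single rats, 456 kept their direction and their side of the threshold, 31 lost a call, 11 gained one and 16 changed sign; no called value changed sign. No member has another probe set, so that alternative gave no value. Signal below the array median limits Aqp4 in the later windows, and the number of arrays limits all values. Where a call ended, the cause was not tested.

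The count of members differing between legs over all rats, 1, was 0 with no replicate block, with no filter, without rats 35 and 37, without rats 17 and 27, within date code 3, and 0 to 1 with single rats left out; the pairing by rat changed no other call. At 6 h to 4 d it was 1 with array weights. Of members lower than at 6 h to 4 d, 0 passed within date code 3 in unloaded legs at either window and in loaded legs at 5 to 8 d, and 1 with date code as a block in unloaded legs at 5 to 8 d. Between 9 to 14 d and 5 to 8 d in unloaded legs 1 passed with array weights, and 0 to 1 with single rats left out.

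Uncalled leg differences that changed sign were, over all rats, Lynx1 with array weights (0.011) and Aqp4 within date code 3 (0.038). At 6 h to 4 d without rats 17 and 27, Aqp4 was 0.11, Atp1b2 -0.075 and Scn4a -0.016; without rats 21 and 27, a choice made after seeing the data because loaded legs 22 and 28 were the closest arrays, 0.048, -0.064 and -0.017; and within date code 3 0.49, -0.26 and -0.19, with Clcn1 at -0.13. Within date code 3 Atp1b2 was 0.33 at 5 to 8 d and Aqp4 -0.13 at 9 to 14 d, and loaded Atp1b2 between the later windows was -0.21. Within date code 5, also added later, Clcn1 was 0.24 at 9 to 14 d.

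With single rats left out, leg differences over all rats ran from -0.13 to 0.027 for Atp1b2 and -0.067 to 0.0502 for Lynx1; at 6 h to 4 d from -0.17 to 0.026 for Aqp4, -0.029 to 0.13 for Atp1b2 and -0.0039 to 0.049 for Scn4a; at 5 to 8 d from -0.41 to 0.29 for Atp1b2 and -0.55 to 0.0797 for Lynx1; and at 9 to 14 d from -0.0896 to 0.15 for Aqp4 and -0.59 to 0.055 for Atp1b2. Scn4a in unloaded legs ran from -0.14 to 0.073 at 5 to 8 d and from -0.10 to 0.0021 at 9 to 14 d.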
